A study of Mus musculus with 4 samples.

Results

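Krt7, Krt8, Krt18, Krt19 and Krt23 are 5 of the 51 keratin genes, and of the 27932 genes in all, listed in single-cell count tables of the embryonic mouse kidney. They were chosen by name as the keratins of simple and ductal epithelium together with Krt23, and all 5 were listed in all 4 tables. The tables came from Drop-seq, a droplet method that tags each transcript near its 3′ end with a cell barcode and a molecular identifier, at E14.5, in the middle of embryonic kidney development. There were 2 mutant libraries, labelled Hoxa9,10,11-/- and Hoxd9,10,11-/-, so that 6 Hox genes of the Abd-B class were targeted, and 2 wildtype libraries without these alleles. Both genotypes shared a mixed background, mostly CD-1 and 129. The labels name no number of animals and no pooling, so the tests below measure the spread between libraries, which may be technical. The title sets the comparison as one of how far cells keep to their lineage when Abd-B Hox function is reduced.

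Keratins are the intermediate filament proteins of epithelia and assemble only as pairs of an acidic type I and a basic type II chain. Krt8 (type II) and Krt18 (type I) form the first such pair in simple epithelia, and Krt7 (type II) and Krt19 (type I) are added in ducts such as the collecting duct. Krt23 is a further type I chain whose own function is less well known. The ureteric bud, an outgrowth of the nephric duct, branches at Ret- and Wnt11-expressing tips, while its stalk becomes the collecting duct. The nephron arises separately, from mesenchyme around the tips, and forms podocytes, proximal tubule, loop and distal tubule.

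In mm10 with the GENCODE annotation the 5 protein-coding genes lie in 2 clusters. Krt7 (ENSMUSG00000023039.17) lies at chr15:101411043-101430313 on the plus strand and Krt8 (ENSMUSG00000049382.10) at chr15:101996698-102004482 on the minus strand. Krt18 (ENSMUSG00000023043.7) lies at chr15:102028180-102032027 on the plus strand, 23698 bases beyond Krt8, and is the type I chain placed beside the type II genes. Krt19 (ENSMUSG00000020911.14) lies at chr11:100140810-100148665 and Krt23 (ENSMUSG00000006777.7) at chr11:99477974-99493137, both on the minus strand. Krt7 overlaps the antisense gene Gm671 and Krt8 the lincRNA gene Gm36026 on the opposite strand. Whether the counting used strand is not given in the sources used here, so reads of these overlapping pairs cannot be told apart with certainty.

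The RefSeq promoter table (GRCm38.p6) held 4 of the 5 genes, all but Krt19. The 250 bases before the start are shown for Krt23, whose level differed between the genotypes, and for Krt7 and Krt18, a type II and a type I gene that were lower where Krt23 was higher. They are given 5′ to 3′ on the strand of the gene, with matches to GGGCGG, the GC box, in capitals.
Krt23 (chr11:99493121-99493370, minus strand): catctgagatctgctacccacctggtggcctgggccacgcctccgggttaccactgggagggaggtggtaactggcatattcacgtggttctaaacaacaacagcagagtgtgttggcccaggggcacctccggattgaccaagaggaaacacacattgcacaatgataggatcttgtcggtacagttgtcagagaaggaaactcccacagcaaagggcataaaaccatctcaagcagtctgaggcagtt
Krt7 (chr15:101412153-101412402, plus strand): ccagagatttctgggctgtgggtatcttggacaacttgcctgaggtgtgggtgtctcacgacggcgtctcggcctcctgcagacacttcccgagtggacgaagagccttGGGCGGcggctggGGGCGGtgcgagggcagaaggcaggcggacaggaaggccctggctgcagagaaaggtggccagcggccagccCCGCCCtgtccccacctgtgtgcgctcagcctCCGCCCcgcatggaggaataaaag
Krt18 (chr15:102027966-102028215, plus strand): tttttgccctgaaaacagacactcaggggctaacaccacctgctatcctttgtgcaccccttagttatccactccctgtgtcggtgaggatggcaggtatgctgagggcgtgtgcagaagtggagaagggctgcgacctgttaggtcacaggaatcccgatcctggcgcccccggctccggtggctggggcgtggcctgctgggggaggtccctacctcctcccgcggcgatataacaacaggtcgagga

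The RefSeq start of Krt7 lies inside the GENCODE gene, so its window is that of a shorter transcript. The windows of Krt7, Krt18 and Krt23 had a GC content of 66.0%, 60.4% and 52.8%. On both strands, 6 motifs were searched. The core promoter motif TATAAA was found in 12.4% of the 32851 promoters in the table, and the GC box GGGCGG in 32.7%. The motif AGATAA, read by zinc finger factors of the Gata family, was found in 9.99%, and the Ets family motif CCGGAA in 12.0%. The motif TTTATGG, read by Hox factors of the Abd-B class, was found in 2.43%, and the grainyhead-like motif AACCGGTT in 0.116%. Krt7 held 4 GC boxes and Krt8 held 1 copy of the Gata family motif. Krt23 and Krt18 held none of the 6, and a match or its lack is a description of these letters and not of binding.

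After the filters on cells, 808 and 4345 cells of the mutant libraries and 1856 and 4779 cells of the wildtype libraries were kept. Total counts before the filters were 3572346 and 21350698 in the mutant libraries, against 9817486 and 24834658 in the wildtype libraries. The mutant libraries had more barcodes above 10% mitochondrial counts (19.6% and 29.1%, against 7.76% and 9.06% in the wildtype libraries). Cells were assigned to 14 classes by molecular identifier counts (UMIs) of marker genes that included no keratin: at least 3 UMIs from at least 2 genes of a class, and at least 2-fold the UMIs of any other class. This gave 41 and 59 ureteric cells in the mutant libraries, against 142 and 261 in the wildtype libraries, or 5.07% and 1.36% of kept cells against 7.65% and 5.46%. Pooled nephron cells numbered 70 and 656 in the mutant libraries, against 539 and 1174 in the wildtype libraries. Mutant libraries 1 and 2 held 0 and 15 nephron progenitors, against 292 and 696 in the wildtype libraries. Ureteric cells were called tip where UMIs of tip markers, among them Ret and Wnt11, outnumbered those of stalk markers, among them Wnt7b and Aqp2, and stalk in the opposite case. Tip cells numbered 4 and 14 in the mutant libraries, against 84 and 145 in the wildtype libraries, which is 9.76% and 23.7% of ureteric cells against 59.2% and 55.6%. Stalk cells numbered 27 and 30 in the mutant libraries, against 40 and 64 in the wildtype libraries. The share of tip cells therefore moved with genotype. Transcripts of the 6 targeted Hox genes were present in every library: Hoxa10, for example, stood at 91.8 and 127.3 CPM (counts scaled to a common library total) in mutant libraries and 152.7 and 175.0 CPM in wildtype libraries, and Hoxd11 at 116.0 and 196.9 CPM against 76.1 and 53.7 CPM. The nuclear RNA Malat1 stood higher in the mutant libraries (4547 and 6544 CPM, against 2275 and 1671 CPM in the wildtype libraries), and the part of this and of the mitochondrial share in the results was not tested. Counts near the 3′ end need not fall in the part of a gene that an allele alters, so they do not check the genotype labels. Mutant library 2 shared 1 barcode sequence with wildtype library 1 and 2 with wildtype library 2.

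A few barcodes of very high depth carried much of the summed keratin counts. The deepest ureteric barcode held 31755 and 63416 UMIs in mutant libraries 1 and 2, against 268158 and 325686 UMIs in wildtype libraries 1 and 2, while the median ureteric cell held 5358 and 5256 UMIs against 4746 and 5525. In wildtype library 2 that barcode was a stalk barcode with 45.0% of all stalk UMIs, among them 250 of Krt7, 345 of Krt8, 691 of Krt18 and 163 of Krt19. In wildtype library 1 it was a tip barcode with 73 UMIs of Krt23, or 33.2% of the ureteric Krt23 of that library. In mutant library 2 it was a stalk barcode with 73 UMIs of Krt19, or 88.0% of the ureteric Krt19 there. Whether such barcodes were single cells was not tested. Results that rest on them are given with and without the barcodes over 50000 UMIs, of which 0 and 1 were kept in the mutant libraries and 2 and 4 in the wildtype libraries.

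Krt8, Krt18, Krt7 and Krt19 were higher in ureteric than in nephron cells, and in wildtype libraries Krt23 was found mostly in ureteric cells. In ureteric cells Krt8 stood at 586 and 596 CPM in mutant libraries 1 and 2, and at 296 and 369 CPM in wildtype libraries 1 and 2. In pooled nephron cells Krt8 stood at 43.0 and 39.3 CPM in the mutant libraries and at 32.1 and 19.1 CPM in the wildtype libraries. All 4 libraries thus had higher Krt8 in ureteric cells, with no overlap. Its partner Krt18 stood at 678 and 808 CPM in mutant ureteric cells and 398 and 709 CPM in wildtype ureteric cells, against 38.2 and 41.2 CPM in mutant nephron cells and 17.9 and 22.7 CPM in wildtype nephron cells. Krt7 stood at 336 and 250 CPM in mutant ureteric cells and 76.8 and 185 CPM in wildtype ureteric cells, against 16.7 and 20.3 CPM in mutant nephron cells and 5.97 and 2.23 CPM in wildtype nephron cells. For both genes every ureteric value lay above every nephron value. Krt19 stood at 152 and 195 CPM in mutant ureteric cells and 23.3 and 117 CPM in wildtype ureteric cells, and at no more than 3.25 CPM in the nephron cells of any library. Krt23 stood at 3.53 and 18.8 CPM in mutant ureteric cells and 189.7 and 111.4 CPM in wildtype ureteric cells, against 0 and 0.81 CPM in mutant nephron cells and 0.85 and 2.0 CPM in wildtype nephron cells. The 2 mutant ureteric values of Krt23 rest on 1 and 8 UMIs, and the 2 wildtype values on 220 and 258.

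**Figure D1:**
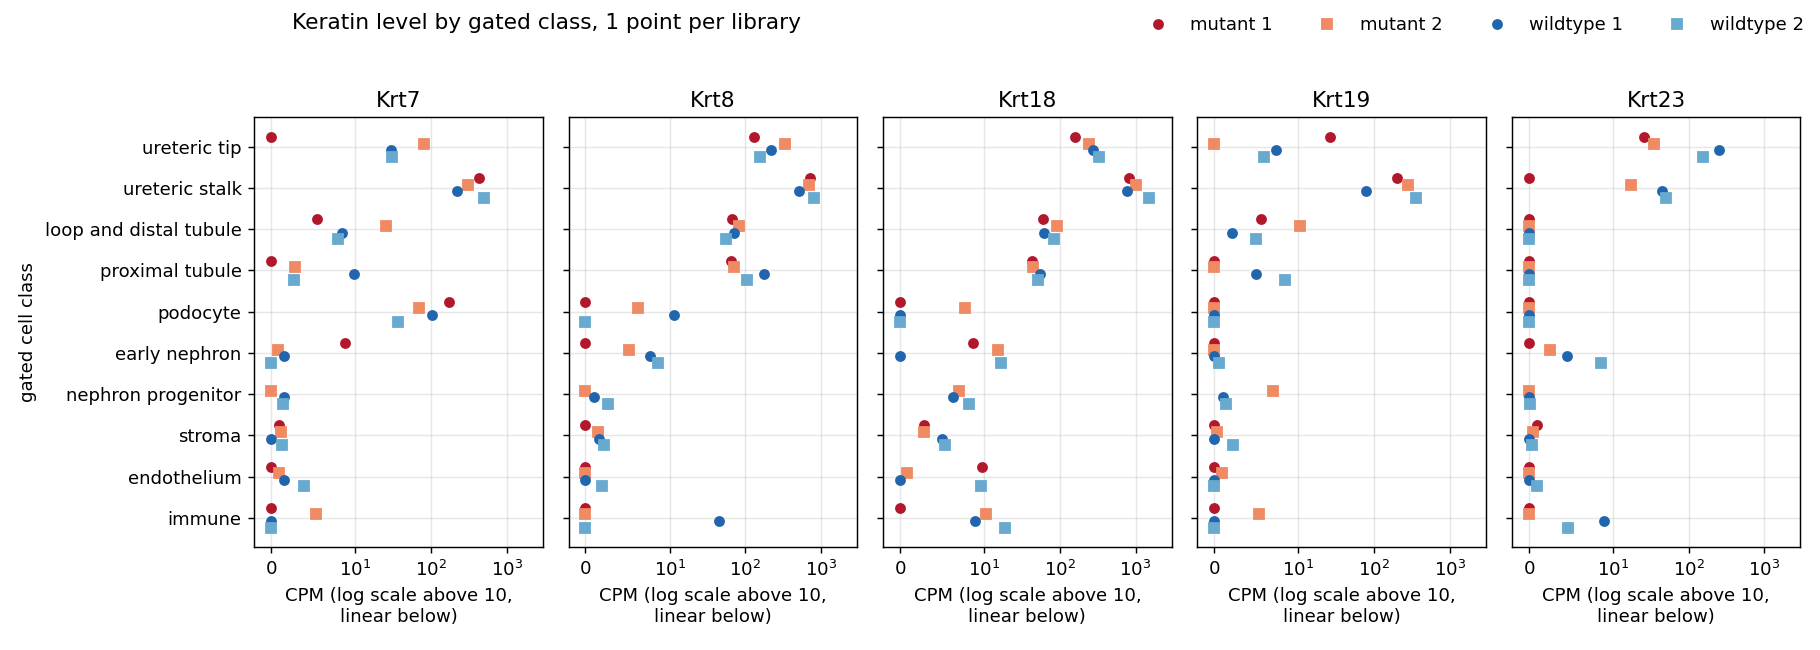
Level of each keratin (CPM of summed counts, symmetric log axis, linear below 10) by cell class, with mutant libraries above wildtype libraries in each class and 1 point per library. Krt7, Krt8, Krt18 and Krt19 reach their highest values in ureteric stalk cells, and Krt23 in tip cells, at 26.1 and 34.7 CPM in mutant and 249.4 and 153 CPM in wildtype libraries. A library with fewer than 4 cells of a class has no point there.

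A quasi-likelihood fit in edgeR on the summed counts, with the library as a block and p-values adjusted by Benjamini-Hochberg, called Krt7, Krt8, Krt18 and Krt19 higher in ureteric than in nephron cells, where 19.2% of 10557 genes were called, 10.1% higher and 9.15% lower. The log2 fold change (ureteric over nephron) was 5.51 ± 0.26 (SE) for Krt19, 4.49 ± 0.13 for Krt18, 4.45 ± 0.56 for Krt7 and 3.76 ± 0.16 for Krt8. The adjusted p of Krt7 was 0.0103 and those of the other 3 were at most 2.74e-09. Without wildtype library 1 the adjusted p of Krt7 was 0.0571. Krt23 did not pass the filter on low counts in that comparison, and with no filter its log2 fold change was 6.03 ± 0.29 (SE). Without the barcodes over 50000 UMIs the log2 fold changes were 4.26 for Krt19, 4.21 for Krt18, 4.01 for Krt7 and 3.57 for Krt8, all still called.

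Within the nephron the 5 genes differed in where they were found. In loop and distal tubule cells Krt8 stood at 66.2 and 82.3 CPM in mutant libraries and 71.8 and 56.4 CPM in wildtype libraries, and Krt18 at 60.7 and 92.8 CPM against 61.2 and 84.1 CPM. Krt7 there was at 5.52 and 25.8 CPM in mutant libraries and 8.44 and 7.91 CPM in wildtype libraries, and Krt23 had no UMI in any library. Even against this tubule segment the Krt7, Krt8, Krt18 and Krt19 genes were called higher in ureteric cells, by log2 fold changes of 3.80, 2.64, 3.04 and 4.28, where 13.7% of 8173 genes were called, 6.61% higher and 7.06% lower (edgeR, adjusted p at most 3.49e-12). In proximal tubule cells Krt8 stood at 64.1 and 70.7 CPM in mutant libraries and 176 and 106 CPM in wildtype libraries, and Krt18 at 42.7 and 44.7 CPM against 54.5 and 51.6 CPM. The pair was therefore counted in both tubule segments of every library. Early nephron cells, the stages before the tubule segments, held 0 and 3 UMIs of Krt23 in mutant libraries and 3 and 16 in wildtype libraries, and these were all but 1 of the nephron Krt23 UMIs. Podocytes, the filtering cells of the glomerulus, carried Krt7 at 172 and 70.1 CPM in mutant libraries and 102 and 36.4 CPM in wildtype libraries, from 5 and 45 UMIs against 9 and 2. With 7 and 183 podocytes in mutant libraries and 31 and 18 in wildtype libraries, fewer than 25 cells stood behind some of these values and no test was made. Krt19 and Krt23 had no UMI in podocytes of any library.

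Outside the epithelia the 5 genes were low, apart from small counts in immune cells. In stroma, the interstitial mesenchyme, Krt18 stood at 2.84 and 2.88 CPM in mutant libraries and 4.96 and 5.36 CPM in wildtype libraries, and the other 4 genes at no more than 2.23 CPM in any library. In immune cells Krt8 had 0 and 0 UMIs in mutant libraries against 5 and 0 in wildtype libraries, so that wildtype library 1 stood at 44.7 CPM, and Krt18 had 0 and 2 UMIs against 1 and 4, or 0 and 10.7 CPM against 8.94 and 18.6 CPM. Krt18 in endothelium stood at 9.77 and 0.90 CPM in mutant and 0 and 9.69 CPM in wildtype libraries. In stroma, endothelium and immune cells no member passed the filter on low counts. No cell of any library was assigned to the urothelium, another keratin-rich epithelium, and 2 and 2 mutant cells against 0 and 1 wildtype cells were assigned to the mesothelium. The urothelial markers summed over ureteric cells to 7.07 and 35.3 CPM in mutant libraries and 9.49 and 10.4 CPM in wildtype libraries, and the mesothelial markers to 35.3 and 23.6 CPM against 3.45 and 9.06 CPM. The ureteric markers, which set the class and so had to be high in it, summed to 2756 and 3534 CPM in mutant and 3729 and 2924 CPM in wildtype ureteric cells.

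Within the ureteric epithelium Krt23 ran opposite to the other 4 genes: it was higher in tip than in stalk cells, and Krt7, Krt8, Krt18 and Krt19 were lower. Krt23 stood in tip cells at 26.1 and 34.7 CPM in mutant libraries and 249.4 and 153 CPM in wildtype libraries, and in stalk cells at 0 and 17.3 CPM in mutant libraries and 44.7 and 49.7 CPM in wildtype libraries. The tip value was the higher in each library, although the mutant tip values rest on 1 and 3 UMIs. Krt7 stood in tip cells at 0 and 81.0 CPM in mutant libraries and 29.5 and 30.3 CPM in wildtype libraries, and in stalk cells at 432 and 308 CPM in mutant libraries and 224 and 506 CPM in wildtype libraries. Krt19 stood in tip cells at 26.1 and 0 CPM in mutant libraries and 7.37 and 5.91 CPM in wildtype libraries, and in stalk cells at 199 and 280.4 CPM in mutant libraries and 78.3 and 358 CPM in wildtype libraries. For Krt7 and Krt19 no tip value reached any stalk value. Krt8 stood in tip cells at 130.4 and 336 CPM in mutant libraries and 219 and 155 CPM in wildtype libraries, and in stalk cells at 708 and 703 CPM in mutant libraries and 511 and 800.1 CPM in wildtype libraries. Krt18 had the same order, with 157 and 243 CPM in mutant and 275 and 333 CPM in wildtype tip cells, against 829.8 and 1004 CPM in mutant and 768 and 1506 CPM in wildtype stalk cells. All stalk values of both genes were above all tip values.

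The fit of tip over stalk cells, chosen after seeing the data and with the library as a block, gave Krt23 a log2 fold change of 1.94 ± 0.28 (SE; edgeR adjusted p = 9.65e-06), Krt7 -3.44 ± 0.27 and Krt19 -5.05 ± 0.37. Krt8 had -1.71 and Krt18 -1.91. All 5 were called, in a comparison where 16.9% of 4717 genes were called, 8.33% higher and 8.59% lower. The rule of at least 25 cells in each library was not kept in this fit, since mutant tip cells numbered 4 and 14. In wildtype libraries alone Krt23 had 2.02, with an edgeR adjusted p of 6.29e-10. Without the barcodes over 50000 UMIs Krt7, Krt8 and Krt18 were still called lower, at -2.98, -1.51 and -1.57, while Krt19 and Krt23 no longer passed the filter on low counts. At that setting Krt23 stood at 26.1 and 34.7 CPM in mutant and 238 and 147 CPM in wildtype tip cells, against 0 and 8.87 CPM in mutant and 61.9 and 32.7 CPM in wildtype stalk cells. Without wildtype library 1 or 2, Krt23 was not tested there.

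The transcripts of each gene were also traced to the class that held them. In mutant libraries 10.0% and 34.8% of all Krt23 UMIs lay in ureteric cells, against 93.2% and 83.2% in wildtype libraries. Tip cells alone held 10.0% and 13.0% of them in mutant libraries and 86% and 66.8% in wildtype libraries. The mutant percentages are of 10 and 23 UMIs, and the wildtype ones of 236 and 310. Cells assigned to no class held 8 and 9 Krt23 UMIs in mutant libraries and 12 and 32 in wildtype libraries, which is 7.82 and 2.01 CPM against 5.17 and 4.10 CPM, so the level in unassigned cells overlapped between the genotypes. For Krt19 stalk cells held 71.9% and 68.6% of UMIs in mutant libraries and 42.0% and 70.8% in wildtype libraries. For Krt7 they held 72.4% and 38.5% in mutant libraries and 35.3% and 72.2% in wildtype libraries, and podocytes a further 4.07% and 19.5% against 5.29% and 0.394%. In mutant library 2, 1 stalk barcode held 61.9% of all Krt19 UMIs. In wildtype library 2, 1 stalk barcode held 44.5% of all Krt19 and 49.3% of all Krt7 UMIs. Without the barcodes over 50000 UMIs, stalk cells held 41 of 57 and 8 of 45 mutant Krt19 UMIs. In wildtype libraries they held 20 of 48 and 96 of 202. Of Krt7 UMIs they then held 89 of 123 and 46 of 188 in mutant libraries. In wildtype libraries these were 49 of 155 and 116 of 255. With all barcodes, 80.2% and 55.4% of Krt8 UMIs lay in ureteric cells in mutant libraries, against 66.9% and 73.1% in wildtype libraries. Of Krt18 UMIs, 80.0% and 55.9% lay there in mutant libraries, against 77.0% and 76.8% in wildtype libraries. The same stalk barcodes held 18.2% of all Krt8 and 19.9% of all Krt18 UMIs in mutant library 2. In wildtype library 2 they were 29.5% and 32.3%.

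**Figure D2:**
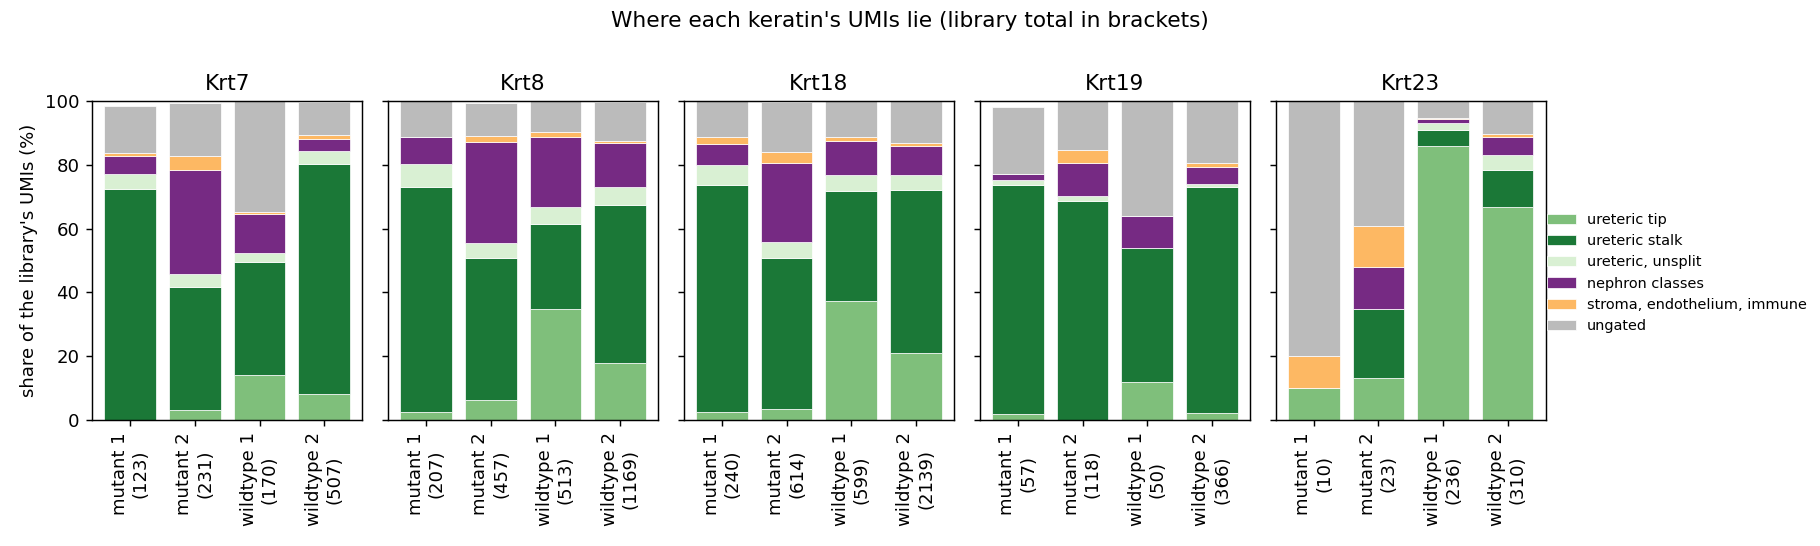
Percent of each keratin's UMIs in a library (total in brackets) that lay in ureteric tip, ureteric stalk, other ureteric, nephron, stroma with endothelium and immune, and unassigned (ungated) cells, with mutant libraries left of wildtype libraries; bars fall short of 100% where UMIs lay in other classes. Tip cells hold 10.0% and 13.0% of Krt23 UMIs in mutant libraries and 86% and 66.8% in wildtype libraries.

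Krt23 was the only one of the 5 genes to differ between mutant and wildtype by the test, and it was lower in the mutant libraries. Over all kept cells it had 10 and 23 UMIs in mutant libraries 1 and 2, which is 3.23 and 1.33 CPM, against 236 and 310 UMIs, or 26.3 and 13.8 CPM, in wildtype libraries. The groups did not overlap. The log2 fold change (mutant over wildtype) was -3.48 ± 0.50 (SE; edgeR adjusted p = 0.000429), where 1.23% of 15779 genes were called, 0.9% higher and 0.33% lower. In a sum over all cells, fewer cells of a type and less RNA per cell cannot be told apart, and ureteric cells were a smaller share of the mutant libraries. Within ureteric cells, where the levels were 11.2 ± 10.8 CPM in mutant and 150.6 ± 55.4 CPM in wildtype libraries (SD, n = 2 each), Krt23 was again lower, by a log2 fold change of -3.64 ± 0.55 (SE; edgeR adjusted p = 0.00584). Only 0.0925% of 8646 genes, or 8 genes, were called in ureteric cells, 0.0116% higher and 0.081% lower. Over the 16 alternative settings the value ran between -5.32 and -3.13, with a highest adjusted p of 0.0401. That highest value came without the barcodes over 50000 UMIs, where the log2 fold change was -4.01 ± 0.56 (SE) and Krt23 was the single gene called of 7600.

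The share of tip cells moved with this result, at 9.76% and 23.7% of ureteric cells in mutant libraries and 59.2% and 55.6% in wildtype libraries, and its part in the ureteric result was not tested. Within tip cells, with 4 and 14 mutant cells, no test was made, and Krt23 had 1 and 3 UMIs in mutant libraries (26.1 and 34.7 CPM) against 203 and 207 UMIs (249.4 and 153 CPM) in wildtype libraries. Within stalk cells Krt23 had 0 and 5 UMIs in mutant libraries (0 and 17.3 CPM) against 12 and 36 UMIs (44.7 and 49.7 CPM) in wildtype libraries. In both subsets the mutant values were the lower ones, without overlap, but the share of all genes likewise apart was not counted. In stalk cells 1 barcode held 23 of the 36 UMIs of wildtype library 2, and 1 held 3 of the 5 of mutant library 2. Without the barcodes over 50000 UMIs, stalk Krt23 stood at 0 and 8.87 CPM in mutant and 61.9 and 32.7 CPM in wildtype libraries, still apart. In mutant tip cells 3 counts correspond to 78.3 and 34.7 CPM, and neither mutant tip value lay above these levels. The stalk log2 fold change was -2.23 ± 0.91 (SE), with an unadjusted p of 0.0239 and an edgeR adjusted p of 1. No gene of 5229 was called in stalk cells (0.0%) by edgeR, with 146 at an unadjusted p under 0.05, and DESeq2 called 0.

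Krt7, Krt8 and Krt19 had higher summed levels in both mutant than in both wildtype libraries in ureteric cells, and none of the 3 passed the test. The share of all genes that were likewise apart was not counted, so this order alone does not set the 3 genes off from others. Krt7 averaged 292.6 ± 60.8 CPM in mutant and 130.8 ± 76.4 CPM in wildtype ureteric cells (SD, n = 2 each), a log2 fold change of 1.12 ± 0.44 (SE; edgeR adjusted p = 0.51). Krt8 averaged 591 ± 6.52 CPM in mutant and 332 ± 51.5 CPM in wildtype ureteric cells, a log2 fold change of 0.80 ± 0.39 (edgeR adjusted p = 0.676). Krt19 averaged 173.7 ± 30.8 CPM in mutant and 70.1 ± 66.3 CPM in wildtype ureteric cells, a log2 fold change of 1.22 ± 0.65 (edgeR adjusted p = 0.768). Krt18, with 743 ± 91.4 CPM in mutant and 553 ± 220.3 CPM in wildtype ureteric cells, overlapped between the genotypes and had a log2 fold change of 0.38 ± 0.41 (edgeR adjusted p = 0.909). Single barcodes weighed on these values. Without those over 50000 UMIs Krt19 stood at 152 and 27.7 CPM in mutant and 30.6 and 55.1 CPM in wildtype ureteric cells, which overlap, and Krt7 at 336 and 174 CPM against 90.6 and 90.7 CPM, which do not. Krt18 then stood at 678 and 612 CPM in mutant and 408 and 478 CPM in wildtype ureteric cells, so its overlap was lost. Krt8 stood at 586 and 471 CPM against 332 and 260 CPM, still apart. The share of all genes likewise apart was not counted at this setting either. Without wildtype library 2, the log2 fold changes were 1.91 for Krt7 and 2.86 for Krt19. That fit left wildtype library 1 alone, which had the lower wildtype levels of both genes (76.8 and 23.3 CPM). Over the 16 alternative settings the values ran from 0.60 to 1.91 for Krt7 and from 0.49 to 2.86 for Krt19. Giving each ureteric cell equal weight, the mean level of Krt7 was 239 and 216 CPM in mutant and 126 and 103 CPM in wildtype libraries. That of Krt23 was 2.86 and 12.5 CPM in mutant and 148.5 and 104 CPM in wildtype libraries.

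In stalk cells, which hold no cell called tip, the log2 fold changes between mutant and wildtype were 0.05 for Krt7, 0.14 for Krt8, -0.28 for Krt18 and 0.13 for Krt19, and the levels of all 4 genes overlapped between the genotypes. In wildtype library 2, 1 barcode held 68.3%, 59.6%, 63.4% and 62.9% of the stalk UMIs of Krt7, Krt8, Krt18 and Krt19. In mutant library 2, 1 barcode held 90.1% of those of Krt19. Without the barcodes over 50000 UMIs, stalk Krt19 stood at 199 and 35.5 CPM in mutant and 103 and 241 CPM in wildtype libraries. Krt7 stood at 432 and 204 CPM against 253 and 291 CPM, and all 4 genes still overlapped. With all barcodes, Krt7 over all kept cells stood at 39.7 and 13.4 CPM in mutant and 19 and 22.5 CPM in wildtype libraries, and Krt19 at 18.4 and 6.84 CPM against 5.58 and 16.2 CPM. Krt8 stood at 66.9 and 26.5 CPM in mutant and 57.2 and 51.9 CPM in wildtype libraries, and Krt18 at 77.5 and 35.6 CPM against 66.8 and 94.9 CPM. Each of the 4 was lower in mutant library 2 than in mutant library 1, and the genotypes overlapped (log2 fold changes 0.20, -0.05, -0.35 and -0.66 for Krt7, Krt19, Krt8 and Krt18). Ureteric cells were 1.36% of mutant library 2 and 5.07% of mutant library 1.

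**Figure D3:**
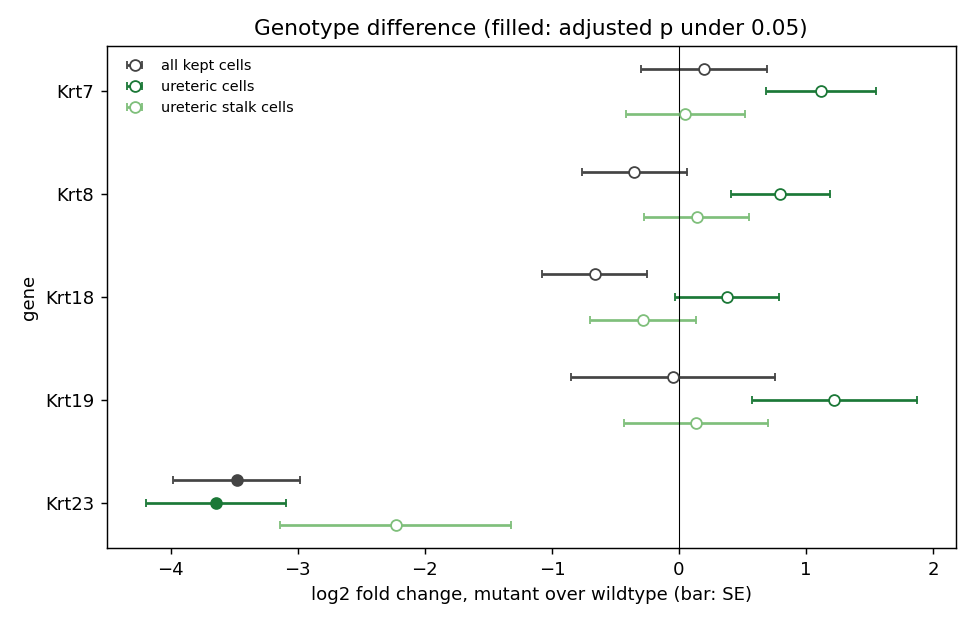
Log2 fold change (mutant over wildtype, edgeR) of each keratin with its standard error over all kept cells, ureteric cells and ureteric stalk cells; filled points passed an adjusted p under 0.05. Krt23 lies at -3.48, -3.64 and -2.23, and its first 2 points are filled.

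In pooled nephron cells 3 of the 5 genes passed the filter and none was called, where 1.03% of 12204 genes were, 0.516% higher and 0.516% lower. Krt7 had 7 and 75 UMIs in mutant libraries against 21 and 19 in wildtype libraries, and its log2 fold change was 2.18 ± 0.54 (SE; edgeR adjusted p = 0.0514). Both mutant levels, 16.7 and 20.3 CPM, were above both wildtype levels, 5.97 and 2.23 CPM. The makeup of the pool moved with it: podocytes, which carried 5 of the 7 and 45 of the 75 mutant Krt7 UMIs and 9 of the 21 and 2 of the 19 wildtype ones, were 7 of 70 and 183 of 656 mutant nephron cells and 31 of 539 and 18 of 1174 wildtype nephron cells. Nephron progenitors were 0 of 70 and 15 of 656 mutant nephron cells, against 292 of 539 and 696 of 1174 wildtype ones. Wildtype progenitors stood at 1.58 and 1.44 CPM for Krt7, 1.06 and 2.67 CPM for Krt8, and 6.33 and 8.22 CPM for Krt18. The part of this makeup in the nephron results of Krt7, Krt8 and Krt18 was not tested. The adjusted p of Krt7 ran between 0.00229 and 0.643 over the alternatives. Krt8 and Krt18 had nephron log2 fold changes of 0.57 and 0.83 (edgeR adjusted p 0.751 and 0.498). In loop and distal tubule cells alone they were 0.24 and 0.09, and edgeR called no gene of 8224 there (0.0%), with 340 at an unadjusted p under 0.05 and 1 called by DESeq2. The difference of the genotype effects between ureteric and nephron cells was fitted as an interaction, in which 1.0% of 11773 genes were called, 0.272% higher and 0.73% lower. None of the 5 genes was called, and Krt23 had -1.82 ± 1.23 (SE; edgeR adjusted p = 0.768), so a larger genotype difference of Krt23 in ureteric cells was not shown by that test.

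The share of ureteric cells with a Krt23 transcript was lower in mutant than in wildtype libraries. After thinning each cell to 1000 UMIs, 0 of 39 and 1 of 55 mutant ureteric cells had a Krt23 UMI, against 14 of 140 (10.0%) and 22 of 251 (8.76%) wildtype ureteric cells. A count of 0 of 39 allows a share of up to 7.69% of cells with a UMI by the rule of 3 counts. The exact 95% binomial (Clopper-Pearson) intervals, which cover counting error only, were 0% to 9.03% for mutant library 1, 0.0460% to 9.72% for mutant library 2, 5.58% to 16.2% for wildtype library 1 and 5.57% to 13.0% for wildtype library 2, and those of the genotypes overlapped. In stroma, which served as the background of free RNA, 0 of 237 and 1 of 1360 mutant cells and 0 of 301 and 0 of 554 wildtype cells had one. The plan had named erythroid and immune cells for this background. Without thinning, the 25 and 64 mutant immune cells held 0 and 0 Krt23 UMIs, and the 33 and 75 wildtype ones 1 and 1. The median depths before thinning were 5358 and 5256 UMIs in mutant and 4746 and 5525 UMIs in wildtype ureteric cells, and 3145 and 3318 UMIs in mutant and 3008 and 3405 UMIs in wildtype stroma. Without thinning, 2.44% and 6.78% of mutant and 37.3% and 32.6% of wildtype ureteric cells had a Krt23 UMI. In wildtype tip cells Krt23 was found in 10 of 84 and 17 of 142 thinned cells (11.9% and 12.0%), against 2 of 39 and 3 of 62 wildtype stalk cells. In mutant libraries 0 of 4 and 0 of 12 tip cells and 0 of 26 and 1 of 30 stalk cells had one.

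Of the other 4 genes, 3 had higher shares in both mutant libraries than in either wildtype library at 1000 UMIs, and for Krt7 alone of these the groups were also apart at 500 and at 2000 UMIs. Krt8 was found in 46.2% and 34.5% of thinned mutant ureteric cells, against 25.7% and 21.1% of wildtype ones. Krt7 was found in 20.5% and 18.2% of mutant cells, against 9.29% and 7.17% of wildtype ones, and Krt19 in 12.8% and 7.27% against 4.29% and 4.78%. Krt18, at 56.4% and 36.4% in mutant and 25% and 38.6% in wildtype cells, overlapped between the genotypes. At 500 UMIs the shares of Krt19 overlapped, with 9.76% and 0% in mutant and 1.41% and 2.30% in wildtype ureteric cells. At 2000 UMIs those of Krt8 overlapped, with 55.9% and 51.0% in mutant and 51.6% and 38.7% in wildtype ureteric cells. These shares came from a class with a smaller part of tip cells in the mutant libraries, and no test was made on them. The share of all genes whose groups were likewise apart in thinned cells was not counted.

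**Figure D4:**
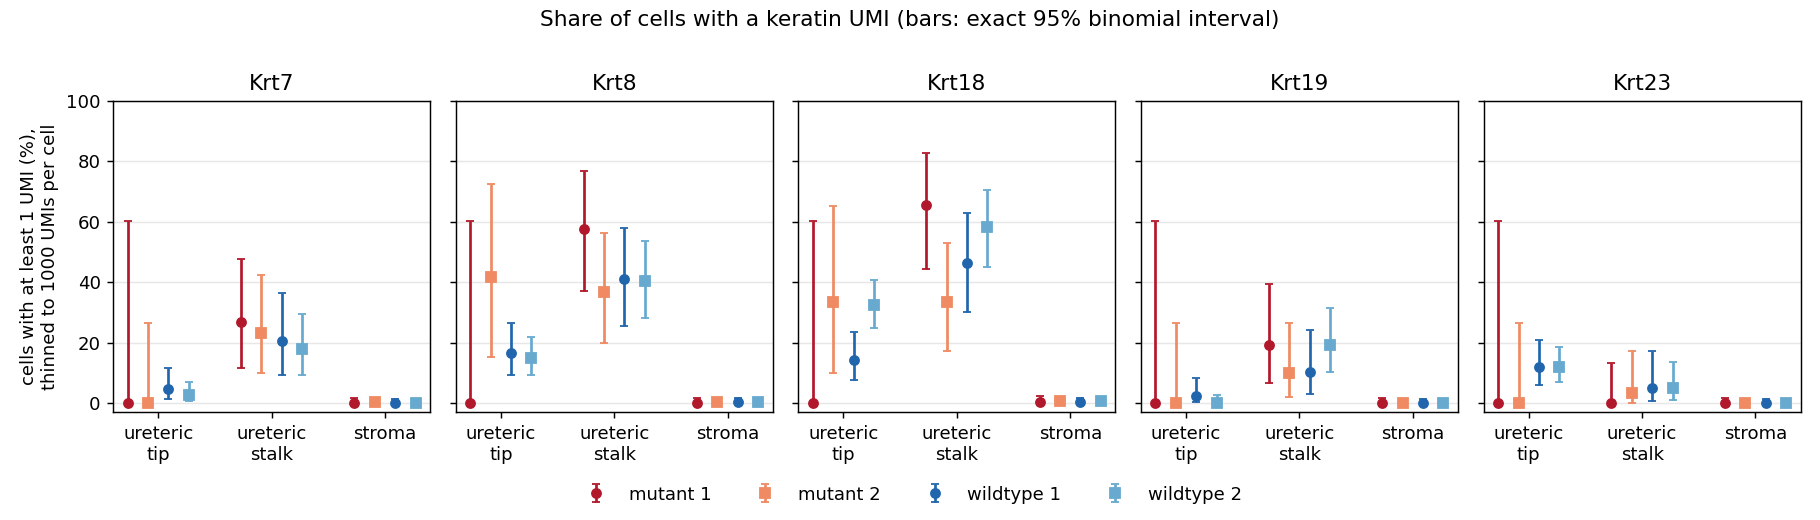
Percent of ureteric tip, ureteric stalk and stroma cells with a UMI of each keratin after thinning to 1000 UMIs per cell, with mutant libraries left of wildtype libraries and exact 95% binomial intervals as bars. Krt23 was found in 11.9% and 12.0% of wildtype tip cells, and in 0 of 4 and 0 of 12 mutant tip cells.

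Cells with 1 member were also counted for another. Of ureteric cells with Krt18, 87.5% and 88.0% also had Krt8 in mutant libraries, against 83.2% and 76.6% in wildtype libraries, without thinning. Of cells with Krt8, 87.5% and 89.8% had Krt18 in mutant libraries, against 85.6% and 89.2% in wildtype libraries, where Krt8 was found in 78.0% and 83.1% of all mutant and 73.2% and 67.4% of all wildtype ureteric cells. At 1000 UMIs per cell, 50% and 40% of mutant and 31.4% and 24.7% of wildtype cells with Krt18 had Krt8, against 46.2% and 34.5% of all mutant and 25.7% and 21.1% of all wildtype ureteric cells. Of wildtype cells with Krt23, 75.5% and 80.0% also had Krt18, which was found in 75.4% and 78.5% of all wildtype ureteric cells. Of the same cells 22.6% and 27.1% had Krt7 and 11.3% and 11.8% had Krt19, against 32.4% and 29.5% and 12.7% and 13.8% of all wildtype ureteric cells. The mutant libraries had 1 and 4 cells with Krt23. Deeper cells have more genes with a UMI, so these percentages rest in part on depth and are a description.

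The remaining keratins gave a comparison. Of the 46 other keratin genes, 6 had at least 30 counts: Krt1, Krt10, Krt15, Krt36, Krt75 and Krt79. Krt10, a type I keratin known from differentiating skin, stood at 38.4 and 33.5 CPM in mutant and 38.5 and 40.4 CPM in wildtype libraries, and at 35.0 and 34.9 CPM in mutant and 38.9 and 40.6 CPM in wildtype stroma. In ureteric cells it stood at 56.5 and 44.7 CPM in mutant and 46.6 and 48.8 CPM in wildtype libraries. Krt10 had a log2 fold change of 0.22 between ureteric and nephron cells (edgeR adjusted p = 0.464). Of these and the other non-member keratins, 7 were tested between mutant and wildtype over all kept cells and 0 were called.

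Genes that work with keratins in epithelia were mostly higher in ureteric than in nephron cells as well, where 10.1% of all genes tested were called higher and 9.15% lower. Of 10 desmosome and plakin genes tested, which anchor keratin filaments at junctions, 7 were called higher, among them the desmosomal cadherins Dsg2 (log2 fold change 2.33) and Dsc2 (3.34), plakoglobin Jup (1.60) and periplakin Ppl (2.36). Of 15 genes of epithelial junctions and surface, 12 were called higher, among them the cadherin Cdh1 (1.63), cingulin Cgn (2.36), the protease St14 (2.79) and its inhibitor Spint1 (2.33). Of 13 transcription regulators of epithelia, 9 were called higher, among them Ehf (6.24), Klf5 (5.36), Elf5 (4.93) and Tfcp2l1 (1.86), and 1 lower, the nephron and duct factor Pax8 (-0.91), which is named because it was the single one. The median log2 fold changes of the 3 lists were 1.52, 1.63 and 1.86, against -0.02 over all genes tested. Of 9 other intermediate filament genes, 4 were called lower, among them Vim (-2.23) and Des (-3.61) of mesenchyme and muscle and the neuronal Nefl (-3.77), and 1 higher, the lamin Lmna (1.14). Against loop and distal tubule cells alone the 3 epithelial medians were smaller, at 1.14, 0.19 and 0.43, against 0.01 over all genes tested. There 5 of 6 desmosome, 5 of 15 junction and 3 of 11 regulator genes were called higher, and 0, 3 and 2 lower. Of all genes tested, 6.61% were called higher and 7.06% lower. Of 5 other intermediate filament genes tested there, 2 were called higher, Lmna and Nes, and 0 lower. Between tip and stalk cells, where 8.59% of all genes tested were called lower, 1 of 3 desmosome genes (Jup, -1.61), 8 of 14 junction genes (among them Spint1, -1.95, Cgn, -1.40, and Cdh1, -1.29) and 3 of 8 regulators (among them Tfcp2l1, -1.65, and Ehf, -0.85) were called lower and none higher. Between mutant and wildtype none of the 3 epithelial lists had a called gene, over all kept cells (11, 16 and 17 tested) or in ureteric cells (9, 14 and 14 tested). Their medians in ureteric cells were 0.97, 0.60 and 0.31, against 0.00 over all genes. The lowest p-values there were those of the plakin Plec (1.88, edgeR adjusted p = 0.131) and the collecting duct regulator Tfcp2l1 (1.46, edgeR adjusted p = 0.218). In nephron cells 1 of 15 junction genes tested, the integrin Itga6 (1.62), and 1 of 12 regulators tested, Tfcp2l1 (1.79), were called higher in mutant libraries, where 0.516% of all genes were.

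The genes most like each keratin were ranked by the correlation of log2 CPM across 5 classes (ureteric, loop and distal tubule, stroma, endothelium and immune), a description over few points that share their libraries. The 3 closest to Krt23 were Elf5, a transcription factor, Gemin5 and Slc7a5. Those closest to Krt7 were Bspry, Ehf and Gjb1, and those closest to Krt19 were Scnn1b and Scnn1g, subunits of the sodium channel of the collecting duct, and Gjb1. Krt18 was closest to Rnf43, Erbb3 and Elf3, and Krt8 to Eno1, Efcab14 and Dicer1. Across the 8 sums of tip and stalk cells, a ranking added after seeing the data, Krt23 was closest to Etv5 (Pearson's r = 0.966), a transcription factor downstream of Ret signalling in the tip. Next and close behind came Rnaseh2a (r = 0.960) and Mcm7 (r = 0.956). Etv5 stood in tip cells at 26.1 and 46.3 CPM in mutant and 243 and 143 CPM in wildtype libraries, and in stalk cells at 0 and 3.46 CPM in mutant and 29.8 and 18 CPM in wildtype libraries. Krt23 and Etv5 were both highest in wildtype tip cells, a likeness for which the ranking selected among 4975 genes. The mutant Krt23 values in these sums rest on 1 and 3 UMIs in tip and 0 and 5 UMIs in stalk cells. In the same mutant sums 3 counts correspond to 78.3 and 34.7 CPM in tip and 14.6 and 10.4 CPM in stalk cells. Most mutant Etv5 values lay below these levels. In that ranking Krt7 was closest to Slc40a1 (r = 0.990), the iron exporter.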

How the data were processed

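Drop-seq libraries of E14.5 mouse kidneys, 2 mutant and 2 wildtype, were analysed from the tables of whole-number counts per gene and cell barcode that the authors deposited. Bowtie2 2.2.7 and mm10 are named in the submitters' processing notes. The annotation, the use of strand and whether UMIs were collapsed are not given in the sources used here, and counts are called UMIs as the method implies. The 5 members and the gene lists were chosen with earlier results of these data known.

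Of 15144 barcodes, 11788 were kept: at least 500 genes, at most 10% mitochondrial counts, and not in the top 5% of Scrublet doublet scores of their library (scanpy 1.11.5). Scrublet's own threshold marked only 17 barcodes and had not worked, so scores served as ranks, which removed 611. All 131 class markers were found, and no keratin was among them; some markers of the tip and stalk split are not reported here. Counts were summed per library and class (at least 25 cells in each library for a test) and fitted with edgeR 4.0.16 in R 4.3.3 (TMM scaling, filterByExpr, robust quasi-likelihood, Benjamini-Hochberg over all genes tested, threshold 0.05), with the library as a block between classes. The fit of tip over stalk cells was exempt from that number of cells. The standard error is the log2 fold change divided by the square root of F. DESeq2 1.42.0 was an alternative. CPM were computed from all counts of the summed cells, so that 3 counts, taken as the limit of a count of 0, correspond to 10.6 and 7.06 CPM in mutant and 2.59 and 1.29 CPM in wildtype ureteric cells. Named besides the members were other keratins with at least 30 counts, of each list the called genes with the smallest p (at most 4, or the 2 with the smallest p where none was called), and for each member the 3 genes most like it in log2(CPM + 5) among genes of at least 20 CPM in a class. The scripts were tested on simulated counts. Gene positions came from GENCODE (mm10) and promoters from RefSeq (GRCm38.p6). Alternatives were other filters, gates, normalization, single libraries left out, the replicate number as a block and a limit of 50000 UMIs per barcode, the last added after seeing the data.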

Additional observations from a re-analysis of the deposited data

How the results depend on the processing

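Of 477 fold changes of the 5 keratins under alternative settings, 443 kept their direction and side of the threshold, 8 passed it newly, 1 no longer passed and 25 changed sign, none of them called. Krt23 stayed called lower in mutants over all kept cells (log2 fold change -4.05 to -2.65) and in ureteric cells under all alternatives run. Sign changes for Krt19 over all kept cells were 0.0036 (DESeq2), 0.0073 (replicate block), 0.11 (crossed block), 0.0196 (at least 1000 genes) and 0.22 (without barcodes over 50000 UMIs). In stalk cells they were -0.054 for Krt7 with no filter on low counts and -0.56 for Krt19 without those barcodes, and in the interaction -0.63 for Krt19 without them. Leaving out 1 library gave, over all kept cells, -0.83 to 0.86 for Krt7, -1.22 to 0.24 for Krt8 and -0.93 to 1.10 for Krt19. It gave -0.0090 to 0.88 for Krt18 in ureteric cells and -0.19 to 0.40 in loop and distal tubule. In stalk cells it gave -0.41 to 0.75 for Krt7, -0.15 to 0.48 for Krt8, -0.70 to 0.27 for Krt18 and -0.56 to 1.62 for Krt19, and in the interaction -2.57 to 0.082 for Krt7 and -0.40 to 0.65 for Krt8. The cause was not tested.

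Members called in ureteric cells (1 in the main result) ran between 1 and 3 with 1 library left out. In the interaction (0) they ran between 0 and 1, which was Krt7 at -2.57 (edgeR adjusted p = 2.8e-05) without wildtype library 1. In nephron cells (0) they ran between 0 and 1, and Krt7 was called with no filter on low counts (edgeR adjusted p = 0.0191), a replicate block (0.0181), at least 1000 genes (0.0428), no mitochondrial limit (0.0199) and without mutant library 1 (0.00229). Between tip and stalk cells 3 were called without barcodes over 50000 UMIs, since 3 were tested. The mutant minus wildtype share of ureteric cells was 4.90 percentage points at 500 UMIs and 22.6 at 2000 for Krt7 (11.1 at 1000), 3.02 at 500 and 9.68 at 2000 for Krt19 (5.51), 8.52 and 8.33 for Krt8 (16.9), 7.38 and 7.53 for Krt18 (14.6), and -6.27 at 500 and -19.4 at 2000 for Krt23 (-8.47).

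All genes called moved by over 1.5 times as follows. Over all kept cells (194) leaving out a library gave 262 to 400. In ureteric cells (8) it gave 25 to 128, no filter 52, at least 1000 genes 15, no doublet step 29, no mitochondrial limit 21, a gate of 5 UMIs 29 and no barcode over 50000 UMIs 1. In stalk cells (0) the values were 10 to 19 without a library, 3 with no filter, 8 with the replicate block and 27 with the crossed block. In nephron cells (126) they were 38 to 348, with 73 for DESeq2, 236 with no filter and 35 with the crossed block. In loop and distal tubule (0) they were 3 to 36, with 1 for DESeq2, 15 with no filter, 22 and 39 with the replicate and crossed blocks, 2 with no doublet step, 1 with no 2-fold lead and 2 without deep barcodes. Between ureteric and nephron (2032) they were 912 to 2305, and between ureteric and loop (1117) 667 to 1272 and 636 for DESeq2. In the interaction (118) they were 93 to 179, 25 for DESeq2 and 78 without deep barcodes, and between tip and stalk (798) 220 to 1055, 426 for DESeq2 and 505 without deep barcodes. Deviations of same-numbered libraries correlated at -0.0574 over all cells and -0.179 in ureteric cells. No shared deviation by replicate number was thus seen, and whether the libraries were prepared in pairs cannot be told from this. A replicate block left Krt23 called. A crossed pairing, added after seeing the data, called 275 genes over all kept cells and 8 in ureteric cells. Where 1 library is left out, the lone one is assumed to vary like the other genotype. In immune cells the settings of at least 1000 genes and of 5 UMIs left under 25 cells and were not run. Few mutant ureteric cells limit all ureteric comparisons.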

Other observations

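Among the other intermediate filament genes, Nefm, a neurofilament subunit known from neurons, was called higher in mutant than in wildtype libraries over all kept cells (log2 fold change 3.71 ± 0.42, SE; edgeR adjusted p = 2.6e-05). In that comparison 1.23% of 15779 genes were called, 0.9% higher and 0.33% lower. Counts of Nefm over all kept cells were 543 and 1426 in mutant libraries and 89 and 188 in wildtype libraries. Of these, 404 and 1107 of the mutant counts lay in stroma cells, against 24 and 23 of the wildtype counts. In stroma Nefm stood at 382 and 188 CPM in mutant and 19.9 and 10.3 CPM in wildtype libraries, without overlap. The share of all genes likewise apart in stroma was not counted. In ureteric cells Nefm had 10 and 4 counts in mutant libraries and 3 and 1 in wildtype libraries. Cells assigned to the neural and chromaffin class numbered 7 and 50 in mutant libraries and 0 and 4 in wildtype libraries, and the part of neural cells in the stroma result was not tested.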
